A study of Mus musculus with 8 samples.

Results

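Mitochondrial ribosomal proteins, the products of the Mrpl genes (large subunit) and Mrps genes (small subunit), were followed in the skin of mice that lose nicastrin in keratinocytes. A gene was a member when its symbol read Mrpl or Mrps followed directly by a digit and was not a pseudogene, which gave 77 of the 34745 genes in the deposited table, 48 of the large subunit and 29 of the small. Libraries came from 4 NcstnΔKC mice and 4 normal mice, all of them 16 weeks old and labelled male, and skin lesions were taken for bulk RNA sequencing. By the protocol, both groups carried floxed Ncstn on both alleles and one copy of the Krt14 CreER transgene, which drives an inducible recombinase in basal keratinocytes. NcstnΔKC mice received tamoxifen from 8 weeks of age at 20 mg per kg a day over 5 days and then by gavage every 10 days, and the controls received corn oil instead, although their genotype label reads wildtype. The deletion was therefore limited to cells in which Krt14 was active, whereas the RNA came from whole skin with all its cell types. Nothing in the labels says that any mouse gave more than 1 library or that mice were pooled, and the p-values measure the spread between these 8 samples.

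The mitochondrial ribosome translates the small set of proteins that the mitochondrial genome encodes, nearly all of them subunits of the respiratory chain. Its proteins are encoded in the nucleus, made in the cytosol and imported, whereas its ribosomal RNAs come from mitochondrial DNA, so assembly needs products of both genomes. Many of its proteins have a counterpart in the bacterial ribosome, and the others were added in the course of mitochondrial evolution. Tissues rich in mitochondria, such as muscle and brown fat, contain many mitochondrial ribosomes, and keratinocytes of the epidermis also depend on mitochondrial activity during differentiation.

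Gene counts summed to 5835422 to 12893174 per library, and every NcstnΔKC total was above every normal total. Ncstn itself, counted over the whole gene, was at 60.6 ± 1.54 CPM (counts scaled to one library size; SD, n = 4) in normal and 57.7 ± 6.86 (SD, n = 4) in NcstnΔKC skin. The change was -0.07 ± 0.12 (log2, SE, edgeR adjusted p = 0.663). A count over all exons in whole skin is a weak measure of the loss of floxed exons in keratinocytes. How far the deletion went was not tested. Xist, which female cells transcribe, had 22304 to 37109 counts in replicates 3 and 4 of both groups and 4 to 9 in replicates 1 and 2, while Y-linked counts were 0 to 3 in the former and 886 to 4453 in the latter. That goes against the male label of 4 libraries, balanced over the groups. Cell type markers differed between the groups. All 12 skeletal muscle markers passed as lower, and their summed share of counts was 0.789% to 6.21% over the normal libraries but 0.118% to 0.841% over the NcstnΔKC libraries. Of the adipocyte markers 7 of 8 passed as lower, whereas 9 of 12 basal keratinocyte markers, 5 of 5 neutrophil markers, 3 of 6 macrophage markers and 7 of 8 markers of cycling cells passed as higher. In the basal keratinocyte list and in the cycling list 1 marker each passed as lower. Of 6 fibroblast markers 1 passed as lower and 0 as higher. In bulk skin, fewer cells of a type and less RNA per cell cannot be told apart.

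The members split in both directions. In NcstnΔKC against normal skin 28 members were lower and 11 were higher, and 38 did not pass (edgeR quasi-likelihood test, adjusted p under 0.05, over 15684 genes tested, with all 77 members among them). Those 39 calls are 50.6% of the members, close to the 44.1% called among all genes. Lower calls took 36.4% of the members against a background of 22.7%, and higher calls 14.3% against 21.4%. The groups did not overlap for 41.6% of all genes. All 4 NcstnΔKC libraries lay below all 4 normal libraries for 30 members, 27 of them called, where 20.7% of all genes were apart in that direction. The reverse held for 10 members, all called, against 20.9% of all genes. Called falls ranged from -0.47 to -2.71 on the log2 scale, 13 of them past -1, and called rises from 0.56 to 1.08, with only Mrps14 past 1.

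**Figure D1:**
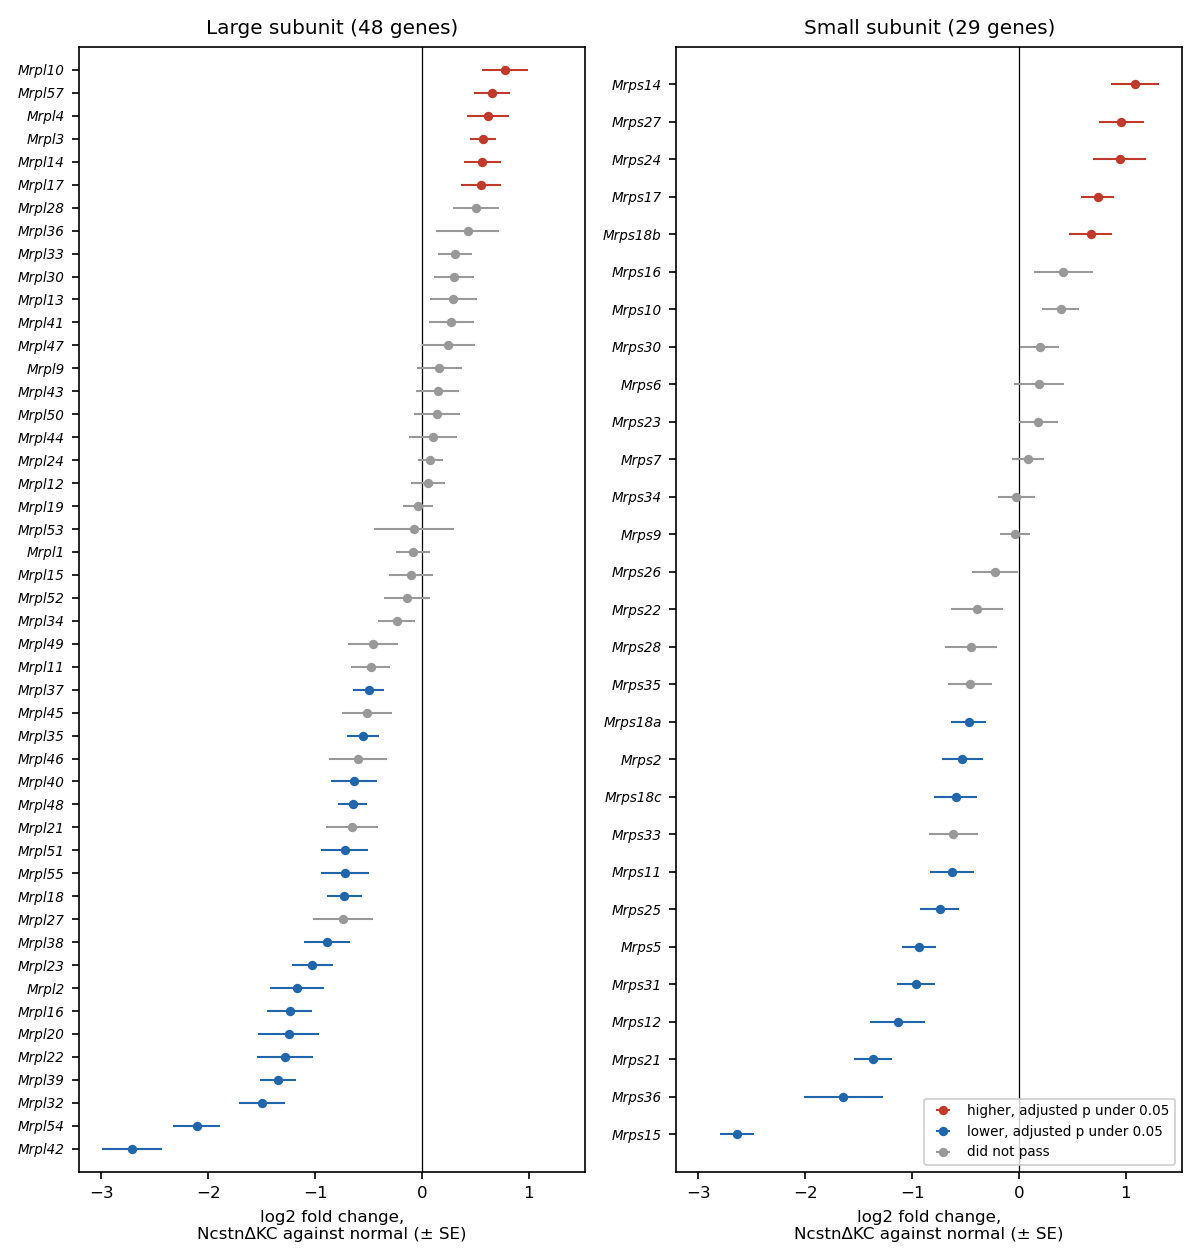
Log2 fold change of each mitochondrial ribosomal protein gene in NcstnΔKC against normal skin (points, horizontal axis) with its standard error (bars), ordered within the large subunit (left, 48 genes) and the small subunit (right, 29 genes). Red points passed as higher (6 and 5 genes), blue points as lower (17 and 11 genes), and the lowest values, -2.71 for Mrpl42 and -2.64 for Mrps15, stand apart from the rest of each subunit.

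Genes of both subunits were called in both directions. In the large subunit 17 genes fell (35.4%) and 6 rose (12.5%). The small subunit had 11 falls (37.9%) and 5 rises (17.2%), where 22.7% of all genes were lower and 21.4% higher. The median log2 fold change was -0.19 over the large and -0.39 over the small subunit, beside -0.02 over all genes tested. Single libraries moved these medians: leaving out normal replicate 3 gave -0.10 and leaving out NcstnΔKC replicate 3 gave -0.30 in the large subunit, and the small subunit's was -0.23 without normal replicate 2 and -0.25 without normal replicate 3. The order of the subunits turned with the libraries that have Xist alone (large -0.28, small -0.21), with counts thinned to the smallest library (-0.27 and -0.22) and without NcstnΔKC replicate 1 and normal replicate 2 together (-0.21 and -0.18). Among members with a bacterial counterpart, 9 of 30 in the large subunit fell (30%) and 5 rose (16.7%), with a median of -0.06. Of 16 such members in the small subunit, 7 fell (43.8%) and 3 rose (18.8%), with a median of -0.24. Among the mitochondria-specific members, 8 of 18 in the large subunit fell (44.4%) and 1 rose (5.56%), with a median of -0.51. Of 13 in the small subunit, 4 fell (30.8%) and 2 rose (15.4%), with a median of -0.39. Calls in either direction took 46.2% to 62.5% of these classes, beside 44.1% of all genes. Counted by structure, Mrps30 and Mrps18a moved to the large subunit, where their proteins sit, and Mrps36 was left out. In that count 18 of 50 large subunit genes fell (36%) and 6 rose (12%), and 9 of 26 small subunit genes fell (34.6%) and 5 rose (19.2%). The split rests on how libraries are scaled: with total counts alone, which move the median of all genes to 0.29, 15 members were lower and 18 higher (54.5% of calls higher, against 28.2%). Those calls were 19.5% and 23.4% of the members, where 14.2% of all genes were lower and 33.9% higher. Scaling by the summed basal keratinocyte markers moved the median of all genes to -0.65 and gave 48 lower (62.3%) and 0 higher, where 46.1% of all genes were lower and 5.09% higher. Relative to the median of all genes, the members' median stayed between -0.20 and -0.22 under those scalings and the main one. A change of scaling shifts all genes by nearly the same amount, so this could hardly differ. Over all settings the difference ran from -0.12 (FPKM with a pseudocount of 1) to -0.30 (without NcstnΔKC replicate 3).

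Single libraries also moved the counts. Without NcstnΔKC replicate 3 the rises were 7 in all (9.09%, where 17.4% of all genes were higher) and 2 in the large subunit. Without NcstnΔKC replicate 4 the large subunit had 3, where 18.5% of all genes were higher. Falls in the small subunit numbered 7 without any one of normal replicates 1, 2, 3 or 4, or NcstnΔKC replicates 2 or 3. Of all genes 16.8% to 19.9% were lower in those fits. Leaving out each library in turn, 19 of the 28 falls and 7 of the 11 rises passed every time. Normal replicate 2 had 3.23% of counts in hair shaft and root sheath markers, against at most 0.0425% in any other library. Without it and NcstnΔKC replicate 1 together, 23 members were lower (29.9%) and 12 higher (15.6%). Of all genes 25.7% were lower and 24.7% higher there. With the libraries that have Xist alone 25 members were lower (32.5%) and 9 higher (11.7%), where 25.4% of all genes were lower and 26.3% higher. With the libraries that lack it alone none passed in edgeR (14 had an unadjusted p under 0.05, 13 of them lower, and DESeq2 called 6 lower and 0 higher), where 4 of all 15668 genes passed in edgeR and 1736 in DESeq2 (11.1%, against 7.79% of the members). The group difference did not differ detectably between libraries with and without Xist for any member (interaction term in edgeR, lowest adjusted p = 0.836, none with an unadjusted p under 0.05). That test called 0 of all 15684 genes, so its outcome says nothing particular to the members. It cannot show that the group difference was alike in both kinds of library.

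Mrpl42 had the largest fall of all members. It encodes a mitochondria-specific protein of the large subunit (ENSMUSG00000062981, chr10:95480806-95501927 in mm10, protein-coding). Its CPM was 23.8, 35.5, 52.4 and 34.6 in the normal libraries, in replicate order, against 4.03, 6.22, 4.98 and 7.05 in the NcstnΔKC libraries. Normal replicate 3 was the highest of its group, and even the lowest normal library was far above the highest NcstnΔKC library. The log2 fold change was -2.71 ± 0.28 (SE, adjusted p = 0.00023).

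Mrps15 fell almost as far and with less scatter. Its protein has a bacterial counterpart that binds ribosomal RNA early in small subunit assembly (ENSMUSG00000028861, chr4:126046925-126055532). The normal libraries were at 27.2, 31.9, 34.7 and 27.4 CPM, and the NcstnΔKC libraries at 4.45, 4.78, 4.70 and 5.44 CPM. Within each group the libraries were close to each other, and the groups were far apart. The fitted change was -2.64 ± 0.16 on the log2 scale (SE, adjusted p = 6.03e-05).

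Mrps14 had the largest rise. It encodes a small subunit protein with a bacterial counterpart (ENSMUSG00000058267, chr1:160195215-160202170). CPM values were 4.25, 5.65, 7.62 and 5.08 in the normal libraries, and 12.6, 9.63, 14.0 and 11.8 in the NcstnΔKC libraries, in replicate order. Each NcstnΔKC library was above each normal one. The rise was 1.08 ± 0.23 (log2 fold change ± SE, adjusted p = 0.00516).

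Mrpl10 had the largest rise of the large subunit. Its protein is the base of the ribosomal stalk, the arm that recruits translation factors (ENSMUSG00000001445, chr11:97041560-97049213). Normal replicates were at 8.81, 14.3, 15.0 and 14.5 CPM and NcstnΔKC replicates at 16.6, 24.9, 24.9 and 23.5 CPM. Replicate 1 was the lowest of its group in both, and the groups did not overlap. On the log2 scale the rise was 0.78 ± 0.22 (SE, adjusted p = 0.0186), and without NcstnΔKC replicate 3 the adjusted p was 0.0508. Of its annotated exon sequence, 14.1% overlaps Gm11574.

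**Figure D2:**
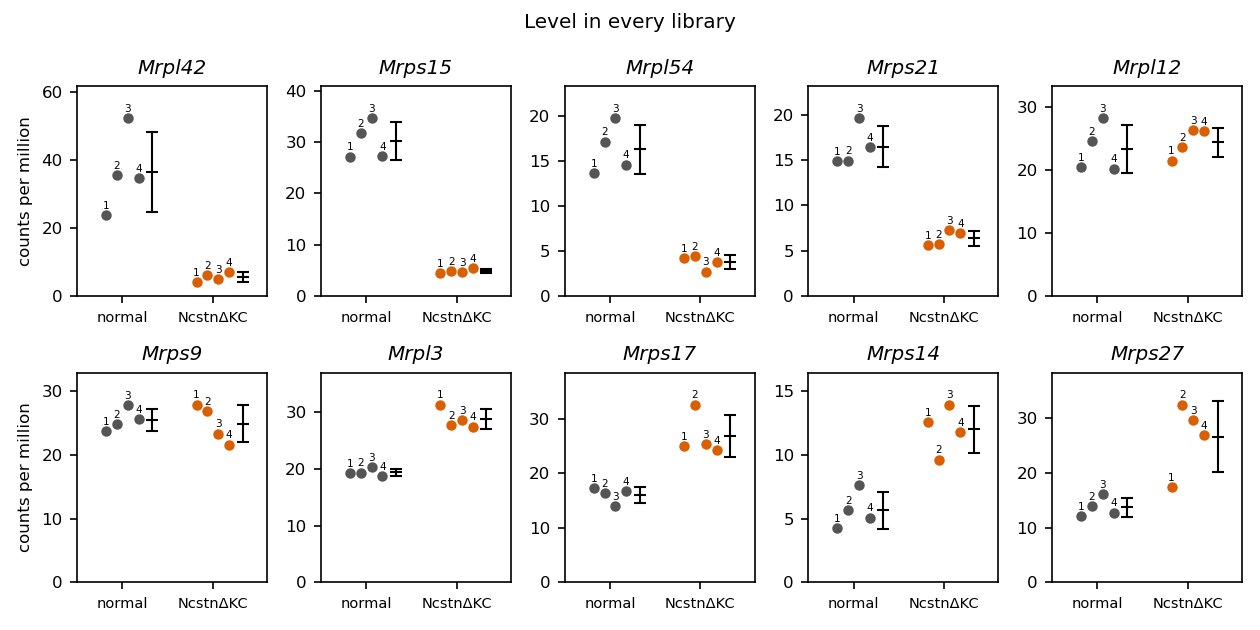
CPM (vertical axis, from 0) of 10 members in each library, numbered by replicate, for normal (grey) and NcstnΔKC (orange) skin; black marks are the mean ± SD of 4 libraries. Mrpl42, Mrps15, Mrpl54 and Mrps21 lie apart and lower in NcstnΔKC, Mrpl3, Mrps17, Mrps14 and Mrps27 apart and higher, and the groups overlap for Mrpl12 and Mrps9.

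The sequence upstream of these 4 genes, the largest fall and the largest rise of each subunit, is shown because members that share a function moved in opposite directions. Each stretch runs 5′ to 3′ on the gene's strand, 250 bases before the RefSeq start and 30 after it, in the RefSeq build GRCm38.p6, the assembly that mm10 names. Capitals mark matches on either strand to the motifs searched.
Mrpl42, chr10:95501920-95502199, minus strand: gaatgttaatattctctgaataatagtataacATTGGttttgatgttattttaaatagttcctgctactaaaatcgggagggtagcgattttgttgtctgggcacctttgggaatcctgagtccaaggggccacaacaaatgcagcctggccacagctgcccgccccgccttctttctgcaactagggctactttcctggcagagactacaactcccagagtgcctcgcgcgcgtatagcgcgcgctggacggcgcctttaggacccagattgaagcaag
Mrps15, chr4:126046678-126046957, plus strand: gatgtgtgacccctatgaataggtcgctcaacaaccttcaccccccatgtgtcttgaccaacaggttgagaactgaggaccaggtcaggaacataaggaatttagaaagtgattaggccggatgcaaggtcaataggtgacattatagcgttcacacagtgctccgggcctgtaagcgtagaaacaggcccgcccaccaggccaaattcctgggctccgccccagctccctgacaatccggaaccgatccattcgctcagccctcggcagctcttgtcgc
Mrps14, chr1:160194965-160195244, plus strand: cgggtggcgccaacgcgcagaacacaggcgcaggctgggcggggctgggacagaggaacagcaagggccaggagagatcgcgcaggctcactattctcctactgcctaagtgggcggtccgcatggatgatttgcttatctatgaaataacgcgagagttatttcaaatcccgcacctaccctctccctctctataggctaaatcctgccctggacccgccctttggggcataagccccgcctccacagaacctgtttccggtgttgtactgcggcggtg
Mrpl10, chr11:97041332-97041611, plus strand: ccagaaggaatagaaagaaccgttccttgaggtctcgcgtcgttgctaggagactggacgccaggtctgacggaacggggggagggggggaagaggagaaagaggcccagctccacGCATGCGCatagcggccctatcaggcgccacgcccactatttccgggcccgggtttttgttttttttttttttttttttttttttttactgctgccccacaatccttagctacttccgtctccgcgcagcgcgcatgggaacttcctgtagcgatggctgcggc

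RefSeq windows of 300 bases (250 before and 50 after the start) were found for 68 of the 77 members and for 27025 genes in all. NRF1, GABPA of the ETS family and YY1 are transcription factors known to bind promoters of nuclear genes for mitochondrial proteins. The NRF1 core GCATGCGC, searched like the others on both strands, was in the windows of 8 members (11.8%) and of 3.05% of all genes. An ETS core, CCGGAAG, was in 25 members (36.8%, against 9.93%), and the YY1 core AAGATGGCG in 8 (11.8%, against 1.64%). For the E-box CACGTG, the CRE TGACGTCA and the CCAAT box the members' shares were 7.35%, 2.94% and 39.7%, beside 8.09%, 2.03% and 41.1% of all genes. Of the motifs searched, the NRF1 core lies in the printed stretch of Mrpl10 and a CCAAT box, on the other strand, in that of Mrpl42, where the YY1 core follows in the last bases of the window. In Mrps15 a CCAAT box lies past the printed stretch, and no motif searched matched in Mrps14. Between the 10 members with a window that rose and the 26 that fell, the ETS core was in 5 and 8 and the YY1 core in 2 and 5. The NRF1 core was in 3 and 3, the CCAAT box in 2 and 13, the E-box in 0 and 4, and the CRE in 0 and 1. Of the 32 with a window that did not pass, 12 had the ETS core, 1 the YY1 core, 2 the NRF1 core and 12 the CCAAT box. The E-box and the CRE were in 1 each of those 32. A match describes these letters only.

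Further falls in the large subunit were led by Mrpl54 and Mrpl32. Mrpl54, a mitochondria-specific protein (ENSMUSG00000034932, chr10:81264713-81266934), was at 13.7, 17.1, 19.8 and 14.6 CPM in normal and 4.2, 4.44, 2.70 and 3.76 CPM in NcstnΔKC libraries, with no overlap. Its change was -2.11 ± 0.22 (log2, SE; adjusted p = 0.00024). Mrpl32 encodes a protein with a bacterial counterpart, which a protease of the inner membrane trims before it joins the ribosome (ENSMUSG00000015672, chr13:14610301-14613037). Its normal libraries had 16.4, 17.7, 21.5 and 15.9 CPM and its NcstnΔKC libraries 5.54, 5.53, 5.39 and 8.80 CPM, where replicate 4 stood above the other three but below every normal library. Mrpl32 changed by -1.50 ± 0.22 (log2, SE; adjusted p = 0.000982). Falls past -1 were also called for Mrpl39 (-1.35), Mrpl22 (-1.28), Mrpl20 (-1.25), Mrpl16 (-1.24), Mrpl2 (-1.17) and Mrpl23 (-1.03), log2 fold changes of large subunit genes whose groups did not overlap.

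In the small subunit the next falls were those of Mrps36 and Mrps21. Mrps36 was named as a ribosomal protein, but its product is now known as a subunit of the 2-oxoglutarate dehydrogenase complex of the citric acid cycle (ENSMUSG00000061474, chr13:100735955-100744659). It had the lowest level of all members, at 2.28, 1.81, 1.27 and 1.69 CPM in normal and 0.587, 0.752, 0.277 and 0.604 CPM in NcstnΔKC libraries, and passed the filter on low counts through the normal group. The groups did not overlap, and the change was -1.64 ± 0.37 (log2, SE; adjusted p = 0.00691), but 21% of its 31-base words also occur in the pseudogene Mrps36-ps1, so reads could be split. Mrps21, with a bacterial counterpart (ENSMUSG00000054312, chr3:95862634-95871519), was at 14.9, 14.9, 19.6 and 16.4 CPM in normal and 5.62, 5.74, 7.26 and 6.92 CPM in NcstnΔKC libraries. It changed by -1.37 ± 0.18 (log2, SE; adjusted p = 0.000611), again without overlap, and shares 14.5% of its 31-base words with Gm6181. Mrps12, the counterpart of a bacterial protein at the decoding site, was the remaining small subunit gene past -1, at -1.13 ± 0.26 (log2, SE; adjusted p = 0.00748).

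Rises in the large subunit were smaller. Mrpl3, a core protein with a bacterial counterpart that binds near the catalytic centre (ENSMUSG00000032563, chr9:105053239-105079888), was at 19.3, 19.4, 20.3 and 18.8 CPM in normal and 31.4, 27.8, 28.7 and 27.5 CPM in NcstnΔKC libraries. Both groups were tight and did not overlap, at 0.57 ± 0.12 (log2, SE; adjusted p = 0.00601). Mrpl57, a mitochondria-specific protein (ENSMUSG00000021967, chr14:57826239-57828745), had 6.83, 7.46, 8.19 and 9.38 CPM in normal and 12, 12, 13.4 and 12.8 CPM in NcstnΔKC libraries, a rise of 0.66 ± 0.17 (log2, SE; adjusted p = 0.012). Here too every NcstnΔKC library was above every normal one. Mrpl4, whose bacterial counterpart lines the tunnel through which the new protein leaves (ENSMUSG00000003299, chr9:21002737-21008835), had 9.87, 11.9, 7.34 and 12.4 CPM in normal and 17.7, 14.3, 15.7 and 15.8 CPM in NcstnΔKC libraries, a rise of 0.62 ± 0.20 (log2, SE; adjusted p = 0.0309). Mrpl14 (ENSMUSG00000023939, chr17:45686322-45698495) had 6.83, 6.05, 8.33 and 6.78 CPM in normal and 9.40, 10.0, 11.5 and 10.5 CPM in NcstnΔKC libraries, a rise of 0.56 ± 0.18 (log2, SE; adjusted p = 0.0276). Neither pair of groups overlapped for Mrpl4 or Mrpl14, but the calls did not pass without NcstnΔKC replicate 3 (adjusted p = 0.0637 and 0.0802) or replicate 4 (0.0604 and 0.0617), nor that of Mrpl14 without normal replicate 4 (0.0535). Mrpl17 rose by 0.56 ± 0.19 (log2, SE; adjusted p = 0.0374) with overlapping groups, and this call did not pass with upper-quartile scaling (adjusted p = 0.0624), with the basal keratinocyte scaling (log2 fold change -0.10), or without any one of normal replicates 1 or 4 or NcstnΔKC replicates 2, 3 or 4 (adjusted p from 0.0582 to 0.0931).

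Among small subunit rises, Mrps27 encodes a mitochondria-specific protein of the pentatricopeptide repeat family, which binds RNA (ENSMUSG00000041632, chr13:99344786-99415561). It was at 12.2, 13.9, 16.1 and 12.8 CPM in normal and 17.4, 32.5, 29.7 and 27.0 CPM in NcstnΔKC libraries. NcstnΔKC replicate 1 was the lowest of its group yet above every normal library, and the change was 0.96 ± 0.21 (log2, SE; adjusted p = 0.0068). Mrps17, with a bacterial counterpart (ENSMUSG00000034211, chr5:129715497-129722556), had 17.3, 16.3, 14.0 and 16.8 CPM in normal and 25, 32.7, 25.4 and 24.3 CPM in NcstnΔKC libraries, apart by 0.74 ± 0.16 (log2, SE; adjusted p = 0.00541). Mrps24, the counterpart of a bacterial protein where messenger RNA enters (ENSMUSG00000020477, chr11:5703983-5715680), had 3.49, 2.62, 4.09 and 3.13 CPM in normal and 7.97, 5.26, 5.32 and 7.25 CPM in NcstnΔKC libraries, a rise of 0.94 ± 0.25 (log2, SE; adjusted p = 0.0139). Its lowest NcstnΔKC library stood above its highest normal one. Mrps18b (ENSMUSG00000024436, chr17:35910379-35916389) had 6.68, 11.3, 11 and 9.90 CPM in normal and 17.9, 15.4, 13.7 and 15.0 CPM in NcstnΔKC libraries, a rise of 0.67 ± 0.20 (log2, SE; adjusted p = 0.0244). For all of these the groups did not overlap. Exons of other genes overlap 24.2% of Mrps27, 30.5% of Mrps18b and 15.4% of Mrps24, and whether reads were counted by strand is not given in the sources used here.

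Some prominent members showed no detectable difference. Mrpl12, the stalk protein that binds to the Mrpl10 product (ENSMUSG00000039640, chr11:120484613-120489065), was at 20.5, 24.6, 28.2 and 20.2 CPM in normal and 21.5, 23.6, 26.3 and 26.2 CPM in NcstnΔKC libraries. Its 95% interval on the log2 scale ran from -0.30 to 0.42 (adjusted p = 0.776). Mrps9, whose bacterial counterpart touches tRNA in the small subunit (ENSMUSG00000060679, chr1:42851233-42905683), was at 23.7, 24.8, 27.8 and 25.5 CPM in normal and 27.9, 26.8, 23.3 and 21.6 CPM in NcstnΔKC libraries, with an interval from -0.35 to 0.28 (adjusted p = 0.86). The groups overlapped for both genes. Mrpl19 (ENSMUSG00000030045, chr6:81957851-81965958) had 15.6, 17.1, 16.4 and 14.6 CPM in normal and 14.6, 16.9, 15.2 and 15.2 CPM in NcstnΔKC libraries (interval -0.36 to 0.28). Mrps34, a mitochondria-specific protein (ENSMUSG00000038880, chr17:24895116-24897502), had 10.5, 14.3, 12.9 and 11.7 CPM in normal and 14.3, 10.7, 11.5 and 12.1 CPM in NcstnΔKC libraries (interval -0.41 to 0.37). In both the libraries of the groups were mixed, though opposite-strand exons of Mapk8ip3 overlap 63.4% of the exon sequence of Mrps34.

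Levels between genes can be compared only per length. By the authors' FPKM, averaged over 8 libraries, Mrpl42 ranked first of the 77 at 28.7, followed in the large subunit by Mrpl34 at 15.1 and Mrpl43 at 14.9, while Mrps16 at 12.5, Mrps27 at 11.4 and Mrps30 at 9.93 led the small subunit. The length inside the FPKM was the sum of distinct exons, each counted whole even where exons overlap, for 55 of the 58 members whose coordinates match GENCODE M21 (within 1%). Per kilobase of non-overlapping GENCODE M21 exon sequence, Mrpl24 ranked first at 18.3 CPM per kilobase and Mrpl42 was at rank 36 (5.19), so the order depended on the length used. Mrpl42 is not among those 58 members. Its length was 666 bases in the FPKM and 3682 in GENCODE M21, so its ranks rest on different gene models and cannot be compared. Mean FPKM spanned 1.30 to 28.7 (median 4.21) in the large and 0.418 to 12.5 (median 3.18) in the small subunit. 

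Of these, Mrpl34 (ENSMUSG00000034880, chr8:71464926-71465752; 9.26, 9.27, 12.3 and 11.6 CPM in normal; 8.06, 9.09, 8.78 and 10.1 in NcstnΔKC) had a 95% interval of the log2 fold change from -0.64 to 0.16. Mrpl43, mitochondria-specific (ENSMUSG00000025208, chr19:45005014-45006442), was at 12.6, 23.8, 16.2 and 16.1 CPM in normal and 19.3, 17.3, 20.4 and 18.9 CPM in NcstnΔKC libraries (interval -0.31 to 0.60). Neither Mrpl34 nor Mrpl43 passed, and neither did the next pair, which rank 64 and 66 among the members per kilobase of non-overlapping exon. Gene models differ for that pair too, with 566 and 1590 bases in the FPKM and 2875 and 6666 in GENCODE M21. Mrps16, whose bacterial counterpart binds early in small subunit assembly (ENSMUSG00000049960, chr14:20391231-20393555), had 4.10, 5.65, 6.49 and 7.43 CPM in normal and 4.87, 9.29, 8.50 and 8.93 CPM in NcstnΔKC libraries (interval -0.20 to 1.03). Mrps30, a large subunit protein by structure (ENSMUSG00000021731, chr13:118380110-118387252), had 12.2, 15.3, 16.2 and 15.1 CPM in normal and 21.4, 15.0, 15.8 and 15.1 CPM in NcstnΔKC libraries (interval -0.21 to 0.60). The groups overlapped in all 4 genes, and 1 NcstnΔKC library, replicate 1, stood high for Mrps30.

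In the members' share of all counts the groups overlapped. Their summed share of all counts was 0.0953%, 0.0988%, 0.106% and 0.0997% in the normal libraries, against 0.0916%, 0.116%, 0.111% and 0.113% in the NcstnΔKC libraries. NcstnΔKC replicate 1 was the lowest of all 8 libraries and the other NcstnΔKC libraries were the highest. The ratio of counts in large to small subunit genes was 1.70, 1.79, 1.88 and 1.78 in normal and 1.74, 1.75, 1.84 and 1.76 in NcstnΔKC libraries, and the groups overlapped.

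The 3 libraries with the highest muscle marker share, all of them normal, also had the highest median over the members. The median over the 77 members of log2 CPM, relative to each gene's mean over the 8 libraries, was -0.04, 0.21, 0.31 and 0.10 in the normal libraries, against -0.20, -0.09, -0.13 and -0.05 in the NcstnΔKC libraries. Within NcstnΔKC the relation did not hold. Replicate 1 had the highest muscle marker share of that group (0.841%) and the lowest median of all 8 libraries. NcstnΔKC replicate 2 had the lowest share (0.118%) and a median of -0.09. Normal replicate 1, whose muscle marker share of 0.789% lay within the range of the NcstnΔKC libraries, had the lowest median of the normal libraries. Against that library alone, a comparison chosen after seeing the data and without a test, the mean of the NcstnΔKC libraries gave a median log2 ratio of -0.01 over the 77 members, and against normal replicates 2 to 4 of -0.31. That median mixes both directions. All NcstnΔKC libraries lay below normal replicate 1 for 27 of the 28 called falls (median -0.72) and above it for all 11 called rises (median 0.89). Of the 38 members that did not pass, 6 lay below and 20 above (median 0.22). The calls themselves used normal replicate 1, so these counts are no separate check. The part of muscle, fat and epidermal cell numbers in the members' median was not tested.

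**Figure D3:**
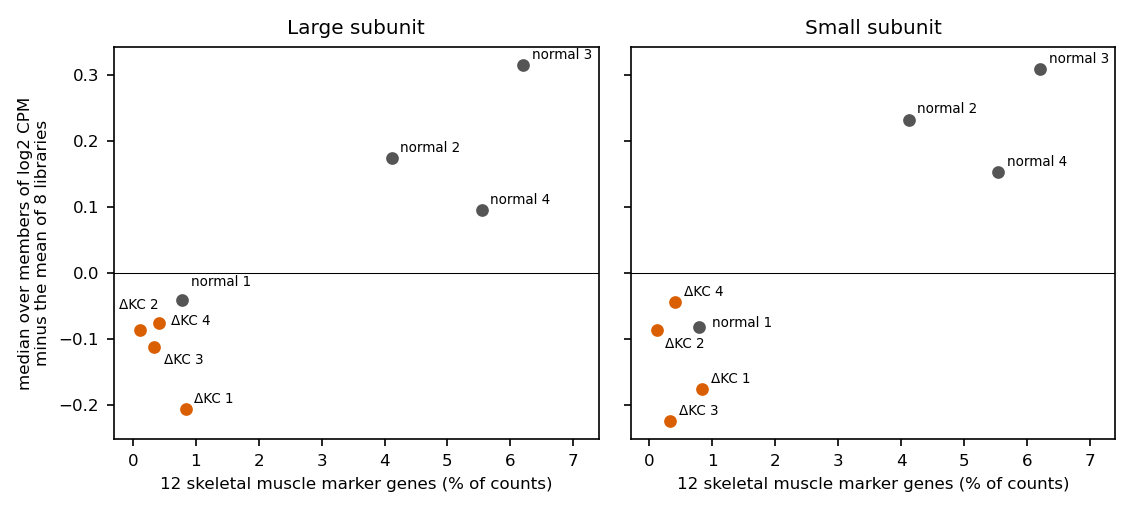
Median over members of log2 CPM minus each gene's mean over the 8 libraries (vertical axis) against the share of counts in 12 skeletal muscle marker genes (horizontal axis, % of counts), for large subunit (left) and small subunit genes (right), 1 point per library. Normal replicates 2 to 4 lie at 4.12% to 6.21% with medians above 0, and normal replicate 1 lies at 0.789% among the NcstnΔKC libraries.

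Some mitochondrial ribosomal genes start head to head with another gene, which lies upstream on the opposite strand. By GENCODE M21, 18 members had a protein-coding partner of this kind starting 26 to 935 bases upstream, and 17 of the partners were tested. Further members, such as Mrpl36 with Ndufs6 and Mrps7 with Gga3, have an opposite-strand partner that starts downstream of their own start. Those pairs were left out here. How common such pairs are among all genes was not counted. Mrpl54 and Apba3, an adaptor of amyloid precursor protein, start 26 bases apart, and Mrpl54 changed by -2.11 while Apba3 rose by 0.70 ± 0.16 (log2, SE; adjusted p = 0.0066). Mrpl32 and Psma2, a proteasome subunit, start 75 bases apart, and Psma2 was at 0.20 ± 0.14 (log2, SE; adjusted p = 0.261) beside -1.50 for Mrpl32. Hira, a histone chaperone, rose by 0.78 ± 0.19 (log2, SE; adjusted p = 0.0112), opposite to Mrpl40 at -0.64. Mrps18b rose and its partner Ppp1r10, which targets a phosphatase to the nucleus, changed by -0.54 ± 0.14 (log2, SE; adjusted p = 0.012). Fau rose by 0.63 ± 0.13 (log2, SE, edgeR adjusted p = 0.00496) beside Mrpl49 at -0.46, which did not pass. Both genes passed in opposite directions in the pairs of Mrpl54, Mrpl40 and Mrps18b. In 3 other pairs both genes passed in the same direction: Mrps27 with Ptcd2 (0.96 and 1.44), Mrpl57 with Ska3 (0.66 and 1.84), and Mrpl2 with Klc4 (-1.17 and -0.66), all log2 fold changes. Of all genes tested 44.1% passed, so a call of a partner is nothing unusual.

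**Figure D4:**
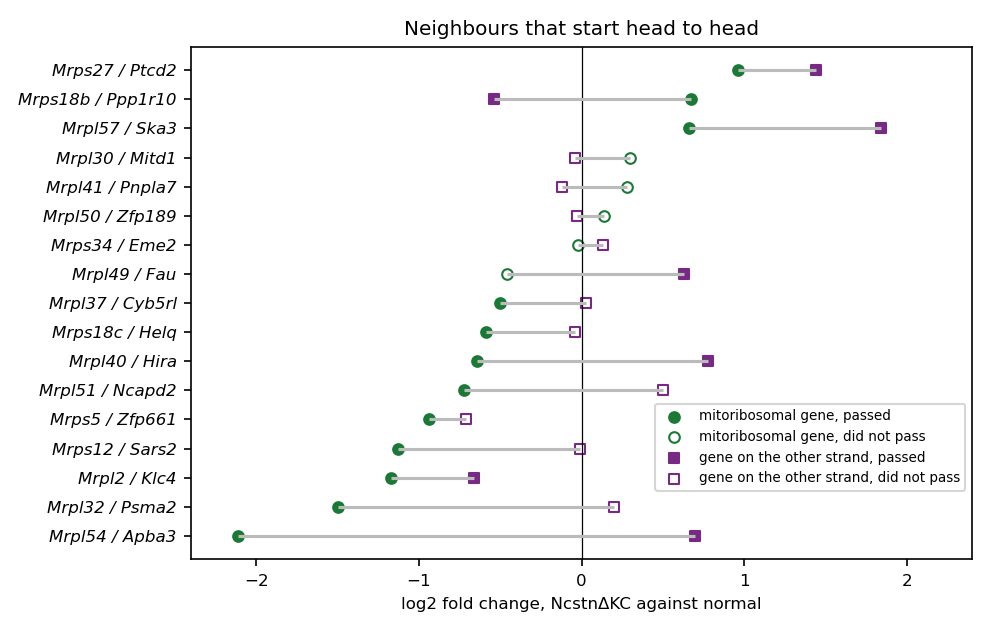
Log2 fold change (horizontal axis) of 17 mitochondrial ribosomal genes (green circles) and of the protein-coding gene that starts head to head with each (purple squares), joined by a line; filled symbols passed at an adjusted p under 0.05. Pairs such as Mrpl54 and Apba3 (-2.11 and 0.70) lie on opposite sides of 0, and Mrps27 and Ptcd2 (0.96 and 1.44) on the same side.

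Genes that act with the mitochondrial ribosome were read from the same fit, where 21.4% of all genes were higher and 22.7% lower. Of 7 ribosomal proteins with other symbols, Ptcd3, an RNA-binding small subunit protein, rose by 0.39 ± 0.14 (log2, SE; adjusted p = 0.0448). That call did not pass with upper-quartile (adjusted p = 0.0783) or basal keratinocyte scaling (log2 fold change -0.24), in limma-voom (0.0515), or without any one of normal replicates 1 or 2 or NcstnΔKC replicates 2 or 3 (from 0.0561 to 0.107). The other 6 did not pass, among them Dap3 of the small subunit at 0.46 ± 0.17 (adjusted p = 0.0563). Translation factors had a median of -0.39 over 14 genes, with 5 lower (35.7%) and 1 higher (7.14%). The lower ones were the initiation factor Mtif3 (-1.17), the translational activator of cytochrome oxidase Taco1 (-1.41), the elongation and recycling factors Gfm1 (-0.48) and Gfm2 (-0.71), and the release factor family member Mtrf1 (-0.97), and the higher one was the elongation factor Tsfm (0.89), all log2 fold changes. Assembly and rRNA modification genes had a median of 0.13 over 26 genes, with 4 higher (15.4%) and 2 lower (7.69%). Among these the higher ones were the helicase Ddx28 (0.84), Rbfa (0.67), Noa1 (0.65) and Mterf3 (0.48). Trub2 (-0.78) and the rRNA methyltransferase Tfb1m (-1.03) were the lower ones.

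Mitochondrial aminoacyl-tRNA synthetases, which load tRNAs with amino acids, had 3 of 17 higher (17.6%) and 1 lower (5.88%), with a median of 0.21. Of all genes 21.4% were higher and 22.7% lower. Mars2 (0.84), Aars2 (0.63) and Hars2 (0.67) were the higher ones. Lars2 was lower, at -6.76 ± 0.17 (log2, SE, edgeR adjusted p = 1.79e-07). Its CPM was 1479 in normal and 13.7 in NcstnΔKC skin. The Lars2 value needs care. In an alternative fit Lars2 was left out together with loci linked to ribosomal RNA, since its count may include reads from such RNA. Whether its messenger RNA fell was not tested. Regulators of mitochondrial biogenesis had 4 of 17 higher (23.5%) and 3 lower (17.6%), near the shares among all genes. The coactivator Pprc1 rose (0.84), as did the mitochondrial DNA polymerase Polg (0.47), the nuclear receptor Esrra (0.80) and the factor Nrf1 (0.56), while the coactivator Ppargc1a (-2.49), Perm1 (-2.32) and the helicase gene listed as Peo1 (-0.50) fell. Neither Gabpa (-0.12 ± 0.11, SE) nor Yy1 (0.06 ± 0.11, SE) passed.

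Around these lists, 33 of 79 nuclear-encoded subunits of the respiratory chain were lower (41.8%) and 6 higher (7.59%), with a median of -0.41. Of all genes 22.7% were lower and 21.4% higher. The respiratory chain list was led in the test by Ndufb3 (-2.72), Ndufb10 (-2.97) and Ndufa13 (-2.67) of complex I and Atp5j2 (-2.44) of the ATP synthase. Of 84 cytosolic ribosomal proteins, 34 were higher (40.5%) and 14 lower (16.7%), with a median of 0.38. Rps7 (1.80) was higher and Rpl21 (-2.52), Rpl38 (-1.83) and Rps24 (-1.64) were lower among the latter. With total counts alone the respiratory chain's median was -0.09 and the cytosolic ribosome's 0.70, and with the basal keratinocyte scaling they were -1.03 and -0.24, so the sign of the latter and of the assembly (-0.51), synthetase (-0.41) and regulator lists (-0.55) turned there. Of 13 protein-coding genes of the mitochondrial genome, 6 of 7 tested were lower (median -3.60), with mt-Nd2 (-4.84), mt-Nd5 (-4.59) and mt-Co1 (-2.15) among them. Those rows need care, since 4 genes were listed at 0 in every library and 3 at 0 in some, although every cell with mitochondria uses them.

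**Figure D5:**
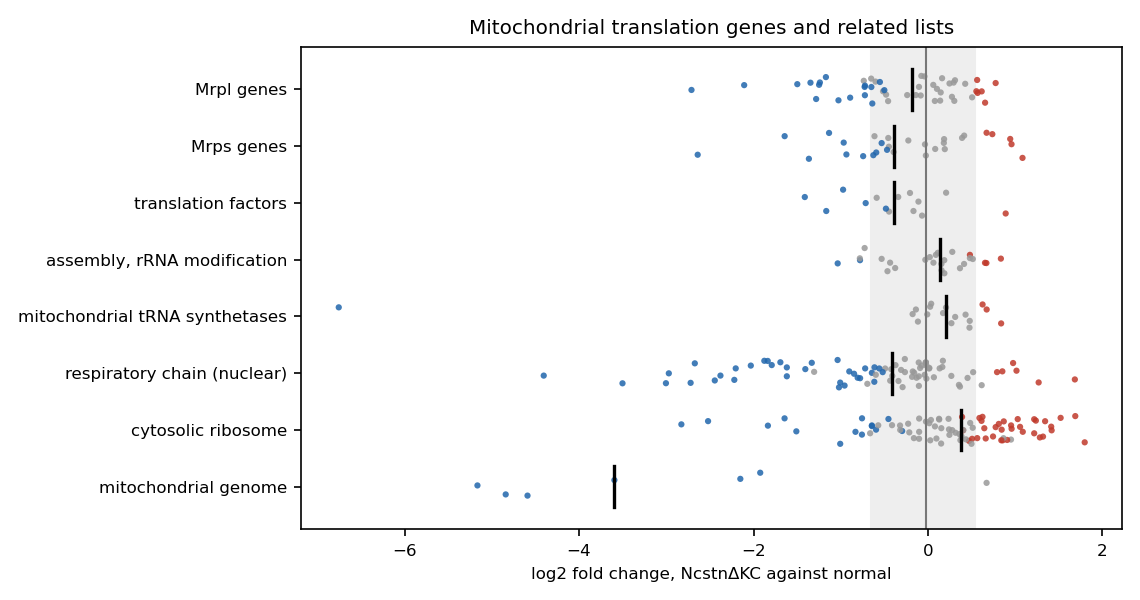
Log2 fold change (horizontal axis) of every tested gene in 8 lists, with red for higher and blue for lower at an adjusted p under 0.05, grey for the rest and a black bar at each list's median. The grey band spans the middle 50% of all genes tested, -0.65 to 0.54; medians run from -3.60 for the mitochondrial genome to 0.38 for the cytosolic ribosome, with -0.19 and -0.39 for the Mrpl and Mrps genes.

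Across the 77 members, the log2 fold change was only weakly related to the exon length (r = 0.16, rho = 0.15) or to mean CPM (r = 0.18, rho = 0.20), values that describe these genes in shared libraries. Overlapping annotation touched a part of the list: 18 members had at least 10% of their exon sequence under exons of another gene, and 28 shared at least 10% of their 31-base words with one. The overlaps were uneven by direction, with 5 of the 11 rises, 3 of the 28 falls and 10 of the 38 other members. The shared words concerned 4 of the rises, 10 of the falls and 14 of the others. Whether reads of the overlapping genes entered these counts was not tested. The 47 members with neither had a median log2 fold change of -0.24, as over all 77. Of those 47, 6 rose, with a median of 0.64, and 18 fell, with a median of -1.05.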

How the data were processed

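RNA from 8 skin samples was sequenced. The submitters' processing notes name TopHat2 2.0.9, TopHat and HTSeq and the builds mm10 and hg38, without saying what each was used for, and the annotation, any use of strand and the depth of sequencing are not given in the sources used here. The deposited table holds whole-number counts per gene and FPKM values of the authors for every library, per the file headers, and the FPKM equal the counts over the library total and a gene length. Counts were tested with edgeR 4.0.16 in R 4.3.3: filterByExpr, TMM scaling, a robust quasi-likelihood fit of group over all 15684 genes kept, two-sided, Benjamini-Hochberg adjustment over all of them, threshold 0.05. CPM are counts over the TMM-scaled library totals, whose factors ran from 0.821 to 1.164, and the SE is the log2 fold change over the root of the F statistic. The script was tested on simulated data first.

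Members were described by a rule: in each subunit the 5 largest called rises and 3 largest called falls, the 3 highest mean FPKM and the 2 changes nearest 0, and in other lists the called genes or the 4 with the lowest p. Members, lists and motifs were chosen with earlier results of these data known. Alternatives used DESeq2 1.42.0, limma 3.58.1, other scalings and filters, FPKM with pseudocounts of 1 and 0.1, counts thinned to 5835422 per library, a replicate block and left-out libraries. The interaction with Xist (above or below 100 counts) and the comparison with normal replicate 1 were chosen after seeing the data. Overlaps, exon lengths, 31-base words and neighbours came from GENCODE M21, promoters from RefSeq. Of the list entries, 3 were matched by an older symbol. Figures were drawn with matplotlib 3.10.9.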

Additional observations from a re-analysis of the deposited data

Results flagged for a closer look

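In 6 of 56 groups of 4 values checked, 1 library stood far from the other three, its gap to the nearest of them beyond Dixon's 95% critical value for that size; chance gives about 1 in 20 such groups. Mrpl10 was at 8.807 CPM in normal replicate 1, below 14.31 to 14.97 in the other normal libraries. Mrpl32 was at 8.799 CPM in NcstnΔKC replicate 4, above 5.392 to 5.538 in the rest of its group. Mrps17 reached 32.66 CPM in NcstnΔKC replicate 2, above 24.31 to 25.44. Mrps30 reached 21.4 CPM in NcstnΔKC replicate 1, above 15.03 to 15.76. The large subunit's share of counts was 0.05818% in NcstnΔKC replicate 1, below 0.07157% to 0.07398%. The ratio of large to small subunit counts was 1.837 in NcstnΔKC replicate 3, above 1.743 to 1.756.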

How the results depend on the processing

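With total counts alone 18 members were higher and 15 lower (large subunit 10 and 9, small subunit 8 and 6; medians 0.135 and -0.055). Scaling by basal keratinocyte markers gave 0 higher and 48 lower (large 0 and 30, small 0 and 18; medians -0.824 and -1.058), with none higher at an unadjusted p under 0.05 in edgeR either. On FPKM, limma-trend gave 22 higher (28.6%) and 16 lower (20.8%) with either pseudocount, where 34.1% of all genes were higher and 13.5% lower with a pseudocount of 1 (large 13 and 10, small 9 and 6), with medians of 0.111 and -0.043 for a pseudocount of 1 and 0.136 and -0.068 for 0.1. Of the 28 falls, 15 passed under all 5 other scalings, and of the 11 rises 10 did when the basal scaling was left aside. DESeq2's Wald test and limma-voom kept all 28 and all 11. With libraries lacking Xist alone edgeR called 0 in each direction and subunit, and the small subunit median was -0.236; with those that have it, -0.211 (large -0.279). The small subunit had 7 falls with no filter, with thinned counts and with the replicate block. Medians without a filter were -0.054 (large) and -0.256 (small), with thinned counts -0.269 and -0.218, and without NcstnΔKC replicate 1 and normal replicate 2 together -0.207 and -0.180. The cause of these shifts was not tested.

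Leaving out 1 library at a time gave 7 to 12 rises and 19 to 28 falls in all, 2 to 7 and 12 to 17 in the large and 5 to 6 and 7 to 11 in the small subunit, with medians from -0.299 to -0.098 (large) and -0.456 to -0.234 (small). Of all genes 17.4% to 24.4% were higher and 16.8% to 26% lower in these fits, against 9.09% to 15.6% and 24.7% to 36.4% of the members. The members' share of counts in NcstnΔKC over normal libraries went from 1.051 to 1.133. Deviations of same-numbered libraries had correlations of -0.018, -0.032, -0.013 and 0.218, and those of differently numbered libraries ran from -0.192 to 0.238. These few values show no pairing by number but cannot exclude one, and Xist status matched between same-numbered libraries. The replicate block gave 8 rises (10.4%) and 21 falls (27.3%), 8 and 20 of them shared with the main calls. Of all genes 18.6% were higher and 19.5% lower with that block.

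Under the basal keratinocyte scaling 23 of the 30 members with a positive fold change turned negative, 4 of the 11 rises among them. The members described with values in every library that turned were Mrpl4 (-0.007), Mrpl3 (-0.051), Mrpl14 (-0.063), Mrpl43 (-0.510), Mrpl12 (-0.585), Mrps16 (-0.253) and Mrps30 (-0.422). Mrpl34 turned to 0.089 with total counts and to 0.093 and 0.098 on FPKM. Of the members nearest 0, Mrpl19 turned to 0.282 with total counts, 0.209 and 0.277 on FPKM, 0.095 with no filter, 0.017 without the muscle, adipocyte and hair markers, 0.023 without the 2 libraries named above, 0.012 with the Xist libraries alone, and -0.079 to 0.053 without single libraries. Mrps34 turned to 0.291, 0.233 and 0.294, 0.109 and 0.032 under the first 5 of these, to 0.012 in the libraries lacking Xist, to 0.046 when thinned, and ran from -0.105 to 0.108 without single libraries. Mrps9 turned to 0.282, 0.220 and 0.281, 0.099 and 0.022 under the same 5, to 0.175 in the libraries lacking Xist, and ran from -0.088 to 0.077 without single libraries.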
